A study of Homo sapiens with 12 samples.

Results

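The loci described here were those whose RNA stood far higher in the monosome fraction than in the polysome fraction of U87MG cells kept in normoxia. A locus is a stretch of the genome that the authors assembled from reads and gave 1 expression value per library. Loci were taken when they carried a gene name, had a mean of at least 1 FPKM (sequenced fragments divided by transcript length and library size) over 12 libraries, and had a normoxia monosome FPKM above 0 and at least 10 times the normoxia polysome FPKM. Loci whose every name was a small RNA were left out. This gave 404 of the 11240 named loci that passed the mean (3.59%), out of 55598 loci in all. The loci were thus chosen by their normoxia monosome and polysome values, which are given below as a description only.

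U87MG is a human glioblastoma cell line, labelled as brain tissue. Cells were lysed after 24 hours in 1 of 4 conditions: acidosis (pH 6.0) under normoxia, hypoxia (1% oxygen) at pH 7.4, the same hypoxia at pH 6.0, and normoxia at pH 7.4. Below, the conditions at pH 6.0 are called normoxia with acidosis and hypoxia with acidosis. All groups shared the same serum-containing medium, and no oxygen percentage was given for normoxia. RNA was sequenced from 3 fractions of each lysate, the monosome fraction (RNA free of ribosomes or carrying a lone one), the oligosome fraction and the polysome fraction, with 1 library per condition and fraction. There are no replicates, so every difference named below compares libraries and none was tested.

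Translating ribosomes load onto an mRNA one behind another, and sedimentation separates RNA by how many it carries. An mRNA that is held back from initiation, a noncoding RNA or an RNA in another particle of similar size collects near the top of the gradient, while well translated mRNAs collect in polysomes. Ferritin mRNAs, mRNAs of the translation machinery with a pyrimidine tract at their start, and hosts of small nucleolar RNAs are textbook cases of RNAs that are, or can be, kept out of polysomes.

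The libraries differed in ways that touch the values below. Depth, estimated from the steps between low FPKM values, ran from 0.626 times that of the normoxia monosome library in the hypoxia with acidosis monosome library to 2.52 times in the normoxia with acidosis polysome library. The same libraries were the extremes of concentration, with 71.2% and 30.6% of all FPKM in their top 100 loci. Of the markers of glioma lines, VIM averaged 5979 FPKM and TNC 16.6 FPKM, while NES averaged 0.79 FPKM, GFAP 0.21 FPKM, CHI3L1 0.10 FPKM and OLIG2 0.02 FPKM. CD44 and SOX2 had no locus of their own. Of 15 markers of other cell types, SNAP25 and EPCAM reached 1 FPKM, the highest average was 4.50 FPKM, and 2 were listed at 0. The hypoxia with acidosis monosome library had the highest value of several cell type markers. VIM was 18545 FPKM there and 1337 FPKM in the normoxia monosome library, and the locus shared by CD44 and a clone was 3211 FPKM and 111 FPKM. KRT18, an epithelial keratin, was 25.1 FPKM there and between 0.09 and 2.16 FPKM elsewhere, and the locus shared by CDH1 and FTLP14 was 0.87 FPKM there and at most 0.01 FPKM elsewhere.

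The ferritin mRNAs, which had the highest normoxia monosome FPKM of these loci, carry an iron-responsive element near their start, a hairpin to which iron regulatory proteins bind and block initiation when iron is low. The 30 bases around its loop are shown for that reason. They come from GENCODE 29 transcripts on GRCh38 for FTH1 (chr11:61959718-61967660, minus strand), FTL (chr19:48965301-48966878, plus strand) and the pseudogene FTH1P10 (chr5:17353695-17354624, minus strand), with the gene's span given, and capitals mark the 6-base loop CAGTGN.
FTH1: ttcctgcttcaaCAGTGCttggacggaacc
FTL: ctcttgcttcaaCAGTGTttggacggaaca
FTH1P10: ttcctgcttcaaCAGTGCttggacagaacc
The loop began at base 71 of 1229 in the FTH1 transcript and at base 47 of 878 in the FTL transcript. The pattern searched, on the transcript strand, was C, 5 bases, CAGTGN and 5 bases able to pair with the first 5, with G-T pairs allowed. It was found for 3 of the 11 ferritin names among these loci and for 594 of 58721 annotated genes, which is 1.01%. A match is a description of the letters and not a measured binding site.

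For the translation machinery, and for comparison the hosts of small nucleolar RNAs, the feature looked for is a run of C and T at the transcription start, the 5′ terminal oligopyrimidine tract through which growth signals control translation of these mRNAs. The windows below run from 10 bases before the annotated start to 20 bases from it, from RefSeq on GRCh38.p14, with the longest run of C and T touching the 5 bases on either side of the start in capitals. They are RPLP0 (chr12:120201092-120201121, minus strand), RPLP1 (chr15:69452808-69452837, plus strand), RPSA (chr3:39406710-39406739, plus strand), RPS12 (chr6:132814559-132814588, plus strand), RPL41 (chr12:56116623-56116652, plus strand), SNHG5 (chr6:85678714-85678743, minus strand) and ZFAS1 (chr20:49278632-49278661, plus strand).
RPLP0: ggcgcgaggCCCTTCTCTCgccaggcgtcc
RPLP1: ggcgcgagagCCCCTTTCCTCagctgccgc
RPSA: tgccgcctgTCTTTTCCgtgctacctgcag
RPS12: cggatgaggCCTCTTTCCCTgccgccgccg
RPL41: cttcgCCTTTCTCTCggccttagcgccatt
SNHG5: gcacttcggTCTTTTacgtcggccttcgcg
ZFAS1: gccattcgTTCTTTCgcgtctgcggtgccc
A run of at least 8 was present in 6 of the 7 translation machinery genes among these loci that had a start in the table (85.7%), in 27 of 33 translation machinery genes outside the group (81.8%), and in 2246 of all 22114 promoters (10.2%). The hosts of small nucleolar RNAs held it in 2 of 10 inside the group and in 2 of 7 outside it (28.6%), with a median run of 6 in both. SNHG5 and ZFAS1, with runs of 6 and 7, are shown as abundant hosts. The run was 3 for GAS5 and 6 for C17orf76-AS1, and both ended before the annotated start. The run of C17orf76-AS1 began at the edge of the window, so it may be longer. The run was thus common to translation machinery genes inside and outside the group.

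The skew towards the monosome fraction seen in normoxia was also present for many of these loci in the 3 conditions that the choice did not use. The monosome FPKM was at least 10 times the polysome FPKM for 261 of the 404 loci in normoxia with acidosis, against 4.58% of all compared loci. In hypoxia it was so for 288 loci, against 6.51%, and in hypoxia with acidosis for 202 loci, against 4.97%. The 10-fold skew was met in all 3 of these conditions by 152 loci, against 2.69% of compared loci and 150 of the 10836 that are not in the group. It was met in normoxia alone by 61 loci, against 91.5% of compared loci that met it in none of the 3, in 1 further condition by 87 (3.72% of compared loci) and in 2 by 104 (2.14%). Without hypoxia with acidosis, 215 loci met it in both of the other conditions. The median log2 ratio of polysome to monosome, with 1 FPKM added to each, was −2.32 in normoxia with acidosis, −2.33 in hypoxia, −2.15 in hypoxia with acidosis and −2.62 in normoxia, against 0.26, 0.24, 0.19 and 0.32 for all compared loci in the same order of conditions.

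**Figure D1:**
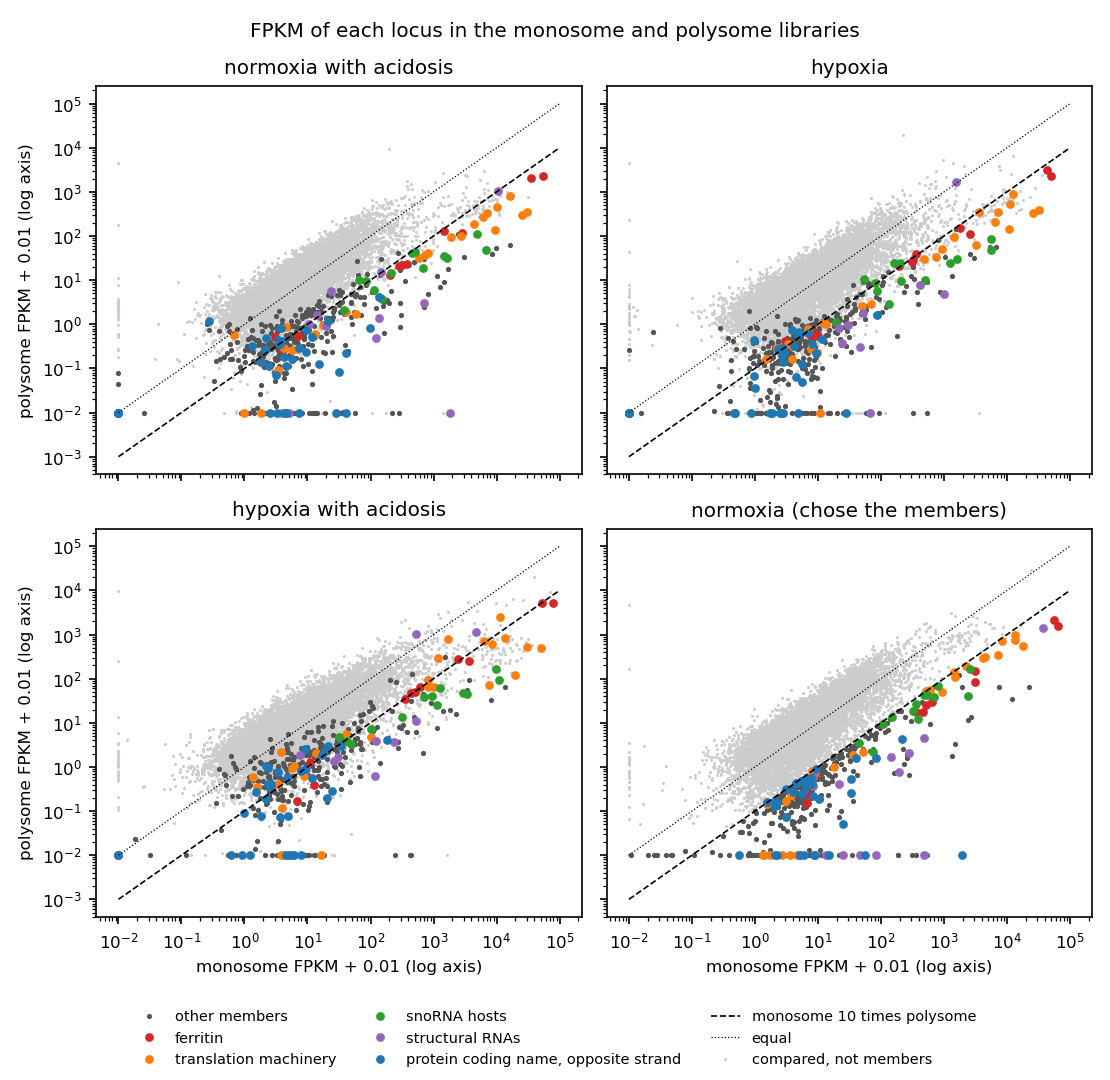
Polysome against monosome FPKM of every compared locus in each condition, with 0.01 added so that values of 0 show on the log axes; larger or darker points are the loci chosen in normoxia, coloured by kind, grey points are the other compared loci, and the dashed line marks a 10-fold ratio. In the 3 conditions not used for the choice, 261, 288 and 202 of the 404 chosen loci lie on or past that line.

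The FPKM ratio describes the make-up of each fraction and not the amount of RNA in it. By the authors' RNA factors, the polysome fraction held 4.89 times the RNA of the monosome fraction in normoxia with acidosis, 2.92 times in hypoxia, 2.74 times in hypoxia with acidosis and 3.6 times in normoxia. With FPKM multiplied by these factors, 99 of the 404 loci kept a 10-fold skew in normoxia with acidosis (24.5%, against 1.15% of compared loci), 148 in hypoxia (36.6%, against 2.2%) and 114 in hypoxia with acidosis (28.2%, against 2.46%). On that scale 159 loci met the original criterion in normoxia.

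The loci were not confined to the monosome fraction. In normoxia the monosome FPKM was at least 10 times the oligosome FPKM for 87 of the 404 (0.907% of compared loci), and the oligosome FPKM was at least as high for 46 (58.9%). Outside normoxia that 10-fold excess over the oligosome fraction was met by 75 loci under normoxia with acidosis (background 0.854%), by 78 under hypoxia (1.16%) and by 59 under hypoxia with acidosis (0.81%). The oligosome value was at least as high as the monosome value for 90 loci under normoxia with acidosis (57.7% of compared loci), for 38 under hypoxia (52.6%) and for 67 under hypoxia with acidosis (54.1%). The median log2 ratio of oligosome to monosome was −0.99 in normoxia with acidosis, −1.27 in hypoxia, −1.13 in hypoxia with acidosis and −1.22 in normoxia. COMMD6, of a family of regulators of NF-kappa B signalling, was picked after its values were seen. It is 1 of the 46 loci whose oligosome value in normoxia was at least as high as the monosome value, and so not typical of the 404. Its oligosome values were 310, 214, 352 and 284 FPKM in normoxia with acidosis, hypoxia, hypoxia with acidosis and normoxia. Its monosome values were 289, 321, 686 and 185 FPKM, and its polysome values 16.6, 19.7, 45.9 and 18.2 FPKM. The polysome fraction alone was low for this gene.

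The members closest to the line were PABPC1L (7.96 and 0.79 FPKM in the normoxia monosome and polysome libraries), RPL39 (1436 and 143 FPKM) and RPS2P55 (521 and 51.2 FPKM). Just outside it lay TMEM59L, DLGAP1-AS2 and C14orf28 with ratios of 9.95, 9.94 and 9.93. In the normoxia polysome library 75 of the 404 loci were listed at 0 and 329 were above 0. All 12 libraries gave a value above 0 for 291 loci, and 26 were at 0 in each polysome library outside normoxia. The mean of 1 FPKM also used these libraries: 29, 19, 32 and 44 loci passed it through the monosome library of normoxia with acidosis, hypoxia, hypoxia with acidosis and normoxia, having a mean under 1 FPKM over the other 11. Without the loci that passed through the monosome library of the condition counted, a choice made after seeing the data, the 10-fold skew was met by 238 of 375 in normoxia with acidosis (4.3% of compared loci), 276 of 385 under hypoxia (6.25%) and 182 of 372 under hypoxia with acidosis (4.61%). The 10-fold skew was met in all 3 other conditions by 70 of 129 loci of mean 10 FPKM or more (99 of 4682 outside the group), by 37 of 98 between 3 and 10 FPKM (19 of 3604) and by 45 of 177 between 1 and 3 FPKM (32 of 2550).

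The 404 loci fell into a small number of kinds of RNA. Ferritin genes and pseudogenes made up 11 of the 12 compared, hosts of small nucleolar RNAs 13 of 22, structural noncoding RNAs 14 of 21, and nuclear copies of mitochondrial genes 5 of 12. The translation machinery (ribosomal proteins, poly(A)-binding proteins and elongation factor EEF1A1, with their pseudogenes) supplied 27 of 222, other long noncoding RNAs 28 of 186, and other pseudogenes 14 of 220. Protein-coding names supplied 43 of 7427 loci where the locus lay on the gene's own strand and 33 of 116 where it lay on the opposite strand, as judged below. The largest kind, 173 loci, carried only the name of a genomic clone, and 41 others named several genes.

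**Figure D2:**
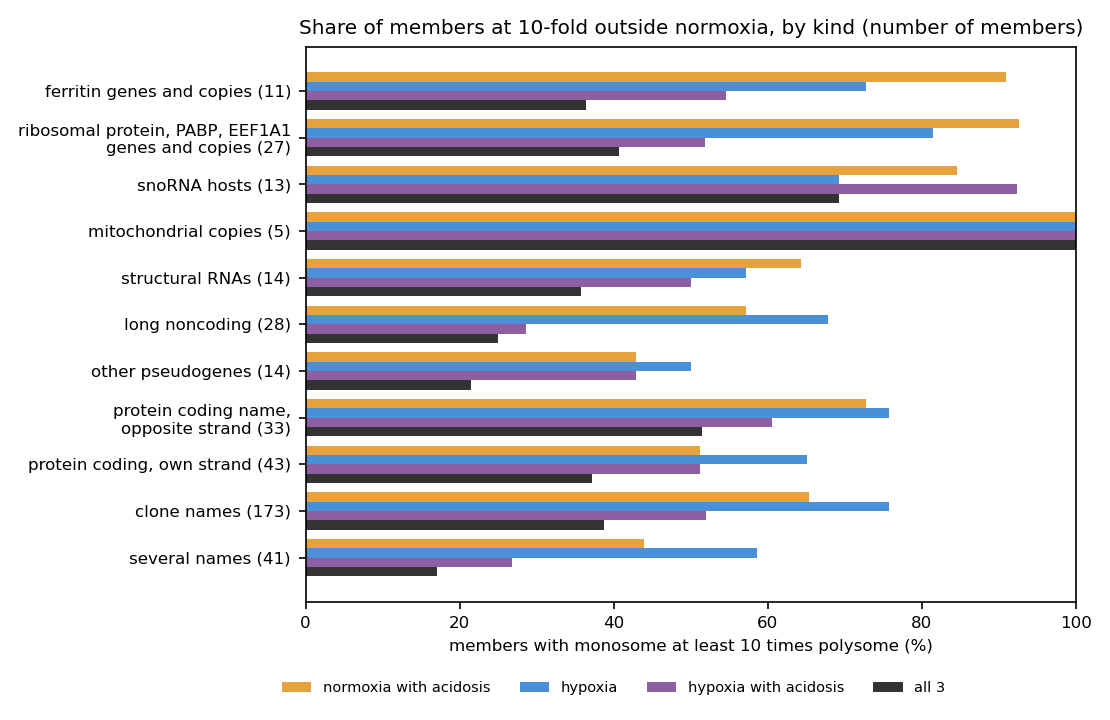
Percentage of the loci of each kind with a monosome FPKM at least 10 times the polysome FPKM in normoxia with acidosis, hypoxia, hypoxia with acidosis and all 3, with the number of loci of the kind in brackets. All 5 mitochondrial copies meet it in every condition, while 22 of 43 own-strand protein-coding loci meet it in hypoxia with acidosis. Of all compared loci 2.69% meet it in all 3 and 4.97% in hypoxia with acidosis.

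Annotated genes among these loci were short and often lacked introns. Over the loci matched to a GENCODE gene on its own strand, 43 of 129 were single-exon genes (33.3%), against 326 of 7540 outside the group (4.32%). The median longest transcript was 1390 bases inside the group and 3454 bases outside it. For 4 kinds compared with loci of the same kind outside the group the shares lay closer together: 13 of 22 translation machinery loci were single-exon, against 58 of 123 outside, and 7 of 12 other pseudogenes, against 139 of 189. Of the hosts of small nucleolar RNAs 0 of 11 were, against 0 of 8 outside, and of the other own-strand protein-coding genes 1 of 37, against 104 of 7068.

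The gene lists were written with earlier results of these data known. Counting genes named by 1 compared locus and no other, 7 of 59 measured ribosomal protein genes and 1 of 28 translation factors (PABPC1) belonged to the group. So did 10 of 18 hosts of small nucleolar RNAs and 5 of 10 genes of a nuclear noncoding list. That list holds long noncoding RNAs and also the structural RNAs RMRP, RPPH1 and TERC. No gene counted in this way on the lists for glycolysis (12), hypoxia targets (19), the ATF4 stress response (21), histones (14), the cytoskeleton (17) or nuclear-encoded oxidative phosphorylation (29) did. STC2 of the hypoxia targets and FSCN1 of the cytoskeleton list, whose names each sit on a further compared locus, had a locus in the group. For STC2, a secreted glycoprotein, that locus lay on the opposite strand, by the measure given below; its monosome values were 1.31, 11.8, 18.6 and 2.06 FPKM in normoxia with acidosis, hypoxia, hypoxia with acidosis and normoxia, while FSCN1 is described below.

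Ferritin light chain, FTL, and ferritin heavy chain, FTH1, the subunits of the iron storage shell, had the highest normoxia monosome values of the group. FTL stood at 55649, 6176 and 2348 FPKM in the monosome, oligosome and polysome libraries of normoxia with acidosis, at 50313, 6602 and 2353 FPKM in hypoxia, at 78848, 12844 and 5273 FPKM in hypoxia with acidosis, and at 64495, 4513 and 1575 FPKM in normoxia. FTH1 stood at 35152, 6752 and 2053 FPKM in normoxia with acidosis, at 42556, 9778 and 3208 FPKM in hypoxia, at 52748, 13208 and 5074 FPKM in hypoxia with acidosis, and at 55516, 6135 and 2155 FPKM in normoxia. In every condition the order was monosome, oligosome, polysome for both mRNAs. The monosome value of FTL was 23.7, 21.4, 15 and 40.9 times the polysome value in normoxia with acidosis, hypoxia, hypoxia with acidosis and normoxia, and that of FTH1 was 17.1, 13.3, 10.4 and 25.8 times. Both ratios were lower in each stress condition than in normoxia, a contrast that shares the values used for the choice.

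The ferritin loci as a group held 8.47%, 7.82% and 6.46% of the summed FPKM in the monosome libraries of normoxia with acidosis, hypoxia and hypoxia with acidosis, and 13.9% in that of normoxia. The choice favours a larger share in normoxia. Of the 11 ferritin loci 10 met the 10-fold skew in normoxia with acidosis, against 4.58% of compared loci. Under hypoxia 8 did, against 6.51%, and under hypoxia with acidosis 6 did, against 4.97%. Some pseudogene loci kept a near-constant share of their parents: FTLP3 was 5.14%, 5.13%, 4.68% and 4.78% of FTL in the monosome libraries of normoxia with acidosis, hypoxia, hypoxia with acidosis and normoxia, and FTH1P7 was 0.89%, 0.75%, 0.95% and 0.92% of FTH1. These copies are near-identical to their parents, so the authors' counting may have split reads between them, and their levels are uncertain.

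Ribosomal protein mRNAs were also abundant. RPLP1, a stalk protein of the large subunit, stood at 25157, 1726 and 294 FPKM in the monosome, oligosome and polysome libraries of normoxia with acidosis, at 25728, 1502 and 340 FPKM in hypoxia, at 30700, 4144 and 515 FPKM in hypoxia with acidosis, and at 17704, 2131 and 550 FPKM in normoxia. RPS12, a small-subunit protein, stood at 30191, 4480 and 348 FPKM in normoxia with acidosis, 32664, 2507 and 390 FPKM in hypoxia, 51349, 6465 and 495 FPKM in hypoxia with acidosis, and 13264, 4973 and 770 FPKM in normoxia. For both, the monosome level was higher and the polysome level lower in each of the 3 stress conditions than in normoxia. The RPS12 ratio of monosome to polysome was 86.7, 83.7 and 104 in normoxia with acidosis, hypoxia and hypoxia with acidosis, and 17.2 in normoxia.

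RPLP0, the core protein of the same stalk, took another course. It stood at 16578, 3640 and 817 FPKM in the monosome, oligosome and polysome libraries of normoxia with acidosis, at 12260, 3195 and 890 FPKM in hypoxia, at 11214, 6925 and 2535 FPKM in hypoxia with acidosis, and at 13549, 3182 and 953 FPKM in normoxia. RPSA, a small-subunit protein that is also known as a laminin receptor, had a monosome to polysome ratio of 22.2 in normoxia with acidosis, 20.8 in hypoxia, 8.97 in hypoxia with acidosis and 20.5 in normoxia. RPLP0 and RPSA were the ribosomal protein genes of the group below 10-fold in hypoxia with acidosis. RPL41, the shortest of the ribosomal proteins, stood at 4403, 3105 and 184 FPKM in normoxia with acidosis, at 6548, 1670 and 206 FPKM in hypoxia, at 8599, 3361 and 611 FPKM in hypoxia with acidosis, and at 2231, 3333 and 193 FPKM in normoxia, where the oligosome value was the highest. RPLP1, RPS12, RPL39, RPL41 and RPS2 stayed above 10-fold in all conditions, with RPL39 at 108-fold in hypoxia with acidosis.

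These 7 ribosomal protein genes differ from the rest in normoxia by choice. There the 52 other measured ribosomal protein genes had a median monosome to polysome ratio of 2.36 and a highest ratio of 9.53. Outside normoxia the median ratio was 23.9 for the 7 genes and 11.2 for the 52 others in normoxia with acidosis, 31.7 and 13.8 in hypoxia, and 16.5 and 30.5 in hypoxia with acidosis. The 10-fold skew was met by 7 of 7 and 29 of 52 in normoxia with acidosis, 7 of 7 and 38 of 52 in hypoxia, and 5 of 7 and 47 of 52 in hypoxia with acidosis. In hypoxia with acidosis, then, the genes chosen in normoxia lay within the range of the other ribosomal protein genes, which ran from 0.807 to 127. With 1 library each, the difference between the sets was not tested.

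**Figure D3:**
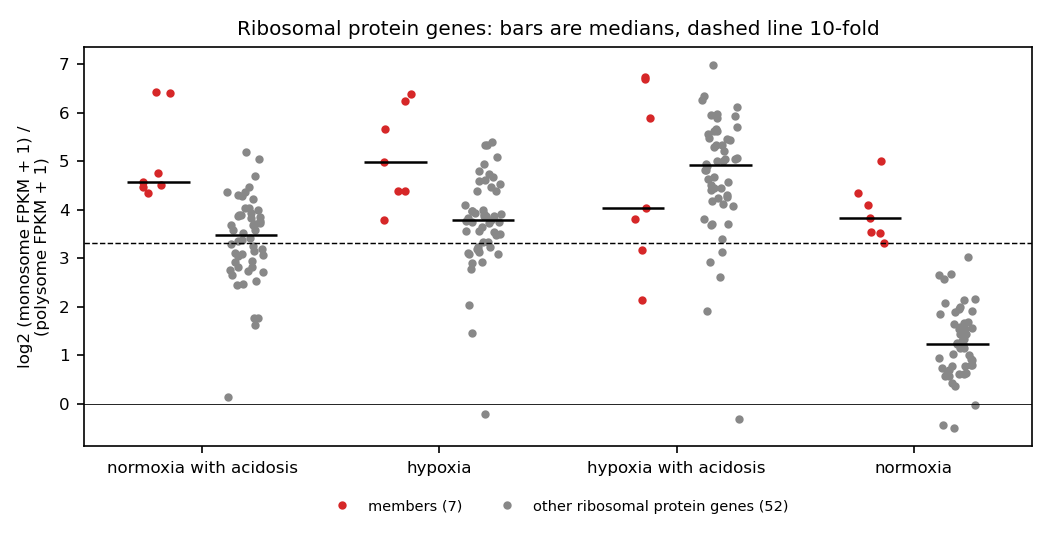
Log2 ratio of monosome to polysome, with 1 FPKM added to each, for 59 ribosomal protein genes in each condition; points are genes, the 7 chosen in normoxia beside the 52 others, bars are medians and the dashed line is 10-fold. In hypoxia with acidosis 5 of the 7 and 47 of the 52 others lie above 10-fold.

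PABPC1, the cytoplasmic poly(A)-binding protein whose own mRNA has a pyrimidine tract, changed order between conditions. It stood at 6996, 1281 and 330 FPKM in the monosome, oligosome and polysome libraries of normoxia with acidosis, at 3613, 1035 and 351 FPKM in hypoxia, at 1729, 2354 and 785 FPKM in hypoxia with acidosis, and at 4094, 1021 and 294 FPKM in normoxia. In hypoxia with acidosis the oligosome value was the highest of the 3, and the monosome value was the lowest monosome value of the 4 conditions. The pseudogene loci RPLP0P6, RPS2P5 and the RPSAP58 locus kept 10.7% to 11.8%, 6.61% to 7.41% and 12.9% to 13.2% of their parents in the monosome libraries, and are uncertain for the same reason as the ferritin copies.

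Hosts of small nucleolar RNAs are transcripts whose introns are cut out to make these guides of ribosomal RNA modification, and whose spliced exons often lack a conserved protein. SNHG5 stood at 6776, 1017 and 49 FPKM in the monosome, oligosome and polysome libraries of normoxia with acidosis, at 5533, 432 and 48.3 FPKM in hypoxia, at 11114, 1362 and 95.1 FPKM in hypoxia with acidosis, and at 2426, 914 and 41.2 FPKM in normoxia. ZFAS1 stood at 1461, 377 and 34.8 FPKM in normoxia with acidosis, at 1640, 216 and 30.4 FPKM in hypoxia, at 3339, 461 and 44.8 FPKM in hypoxia with acidosis, and at 482, 315 and 41.8 FPKM in normoxia. GAS5, a growth-arrest transcript, stood at 669, 163 and 19.1 FPKM in normoxia with acidosis, at 492, 61.6 and 10.1 FPKM in hypoxia, at 1156, 184 and 25.6 FPKM in hypoxia with acidosis, and at 391, 91.5 and 12.2 FPKM in normoxia. For SNHG5, ZFAS1 and GAS5 the monosome value was lowest in normoxia and highest in hypoxia with acidosis. This was not so for every host: the monosome value was above that in normoxia for 7 of 13 loci under normoxia with acidosis, for 6 under hypoxia and for 9 under hypoxia with acidosis, and the median of the 13 was 452, 200, 944 and 391 FPKM in normoxia with acidosis, hypoxia, hypoxia with acidosis and normoxia. These counts share the normoxia values used for the choice, which favours lower values elsewhere. They have no share over all compared loci beside them, so nothing is read from them.

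The 10-fold skew of the 13 host loci was met by 11 in normoxia with acidosis, 9 in hypoxia, 12 in hypoxia with acidosis and 9 in all 3. In the same order it was met by 4.58%, 6.51%, 4.97% and 2.69% of compared loci. The protein-coding host NOP56 is a core protein of the box C/D particles. Its monosome values were 65.9, 54.5 and 32 FPKM in normoxia with acidosis, hypoxia and hypoxia with acidosis, and 318 FPKM in normoxia. Its monosome to polysome ratio was 6.63, 5.09 and 6.60 in those stress conditions, and 17.1 in normoxia. Both contrasts with normoxia share the values used for the choice, which favours lower values elsewhere, so nothing is read from them.

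**Figure D4:**
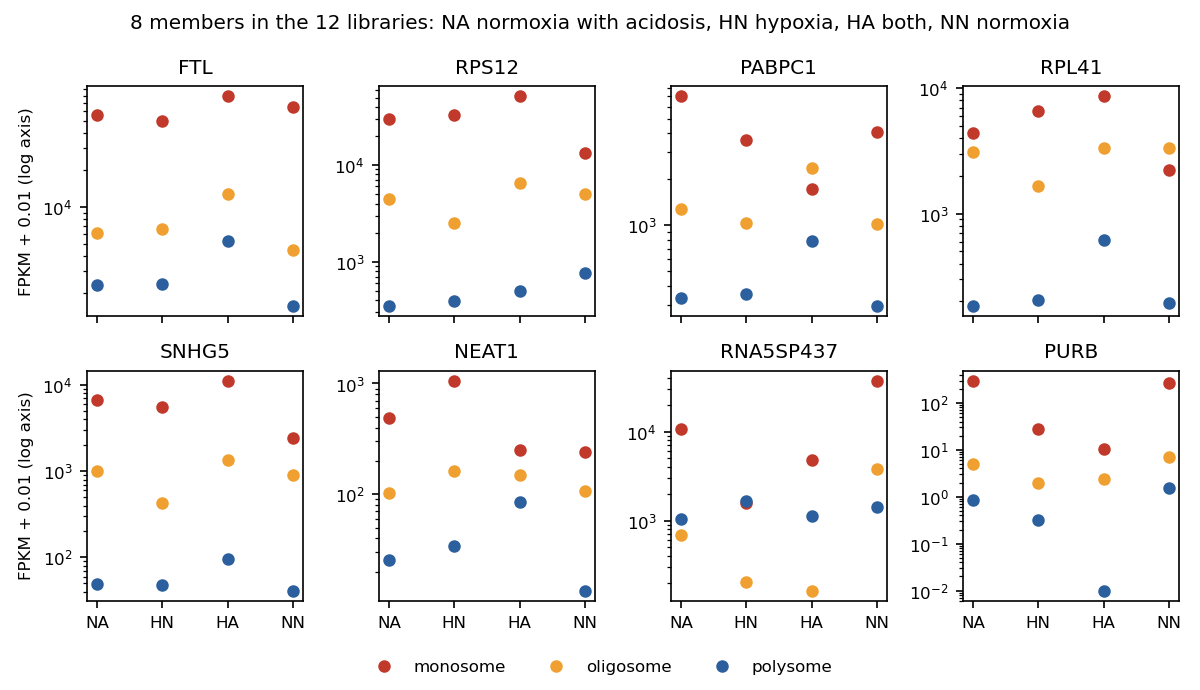
FPKM of 8 named loci in the monosome, oligosome and polysome libraries of each condition, 1 library per point, with 0.01 added so that a value of 0 shows on the log axis. SNHG5 monosome values are 6776, 5533 and 11114 FPKM in the stress conditions and 2426 FPKM in normoxia, while PABPC1 is 1729 FPKM in the hypoxia with acidosis monosome library, under its oligosome value of 2354 FPKM.

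Among long noncoding RNAs, NEAT1, the scaffold of nuclear paraspeckles, was at 491, 104 and 25.6 FPKM in the monosome, oligosome and polysome libraries of normoxia with acidosis. It was at 1050, 161 and 34.1 FPKM in hypoxia, at 252, 148 and 84.6 FPKM in hypoxia with acidosis, and at 240, 106 and 13.5 FPKM in normoxia. Its monosome to polysome ratio was thus 19.2 in normoxia with acidosis, 30.8 in hypoxia, 2.98 in hypoxia with acidosis and 17.7 in normoxia. CRNDE, a transcript first described in colorectal tumours, had monosome values of 89.5, 60.8, 107 and 99.1 FPKM and polysome values of 13.8, 8.91, 24.3 and 9.31 FPKM in the same order of conditions. The 28 loci of this kind met the 10-fold skew in 16 cases in normoxia with acidosis, in 19 under hypoxia and in 8 under hypoxia with acidosis. Over all compared loci the shares were 4.58%, 6.51% and 4.97%.

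Structural RNAs work without being translated. RPPH1, the RNA of ribonuclease P, which trims transfer RNA precursors, was at 712, 10.0 and 3.02 FPKM in the monosome, oligosome and polysome libraries of normoxia with acidosis, at 999, 4.29 and 4.84 FPKM in hypoxia, at 240, 4.71 and 3.75 FPKM in hypoxia with acidosis, and at 277, 5.93 and 2.06 FPKM in normoxia. RMRP, the RNA of the related ribonuclease MRP, was at 148, 28.3 and 14.9 FPKM in normoxia with acidosis, at 423, 14.1 and 7.65 FPKM in hypoxia, at 525, 5.0 and 11.2 FPKM in hypoxia with acidosis, and at 490, 15.6 and 4.6 FPKM in normoxia. RPPH1 was low in the oligosome fraction too, unlike the host transcripts above. RNA5SP437, annotated as a copy of the 5S ribosomal RNA, had monosome values of 10550, 1564 and 4792 FPKM in normoxia with acidosis, hypoxia and hypoxia with acidosis and 36849 FPKM in normoxia. Its polysome values were 1037, 1651 and 1127 FPKM in the stress conditions and 1434 FPKM in normoxia, so the polysome value was the higher in hypoxia.

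BCYRN1, a brain cytoplasmic RNA that derives from an Alu repeat and dampens initiation, was at 123, 1.39 and 0.49 FPKM in the monosome, oligosome and polysome libraries of normoxia with acidosis. It was at 47.3, 0.64 and 0.30 FPKM in hypoxia, at 116, 1.55 and 0.60 FPKM in hypoxia with acidosis, and at 195, 1.95 and 0.74 FPKM in normoxia. The multiple of it at which loci with other names stood was compared for 5 loci, picked after their values were seen. RANBP10, named for a Ran-binding protein, was 68.9, 64.6, 69.6 and 61.0 times BCYRN1 in the monosome libraries of normoxia with acidosis, hypoxia, hypoxia with acidosis and normoxia, and the clone-named locus AC091643.1 was 135, 114, 117 and 115 times. Over all 12 libraries the multiple lay between 47.7 and 103 for RANBP10 and between 86.4 and 192 for AC091643.1. It varied more for the clone-named locus AC092168.4, from 11.4 to 35.9, for SIRT1, from 1.77 to 23.4, and for DMRTC1, from 0 to 9.82. RANBP10 itself was at 8497, 68.8 and 39.2 FPKM in the monosome, oligosome and polysome libraries of normoxia with acidosis, at 3055, 45.6 and 31.0 FPKM in hypoxia, at 8086, 85.3 and 32.1 FPKM in hypoxia with acidosis, and at 11910, 103 and 35.5 FPKM in normoxia. Whether the reads at these loci come from a repeat within the gene was not tested, since the files give no position for a locus.

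The 5 nuclear copies of mitochondrial genes met the 10-fold skew in every condition. In all 3 conditions outside normoxia it was met by 2.69% of compared loci. The locus that names MTATP6P1, MTATP8P1 and a clone stood at 9812, 1160 and 54.8 FPKM in the monosome, oligosome and polysome libraries of normoxia with acidosis, at 6654, 842 and 57.5 FPKM in hypoxia, at 3691, 1188 and 91.3 FPKM in hypoxia with acidosis, and at 7430, 1952 and 63.5 FPKM in normoxia. Reads from the near-identical mitochondrial genome could be counted at these copies, and none of the 13 mRNAs of the mitochondrial genome itself was measured here under its own name, so their source is uncertain.

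Protein-coding names need care, because a named locus can lie on the strand opposite to the gene. The numbering of the deposited loci follows chromosome and strand, and the 10 named neighbours on each side of a locus placed 22953 of 23887 uniquely named loci on the annotated chromosome and strand (96.1%). By this measure 34 of 92 protein-coding single names among these loci lay on the opposite strand (37%), against 84 of 7509 outside the group (1.12%). Where the name was carried by 1 locus only, the counts were 9 of 60 inside the group and 29 of 7290 outside it. Where several loci carried it, they were 25 of 32 inside and 55 of 219 outside. The kit marks strand, per the labels; whether the authors' assembly used it is not given in the sources used here, and signal from a gene and from its opposite strand may be mixed.

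In 25 cases the same protein-coding name sat on a further compared locus, which by the numbering lay on the other strand in 20. Polysome FPKM exceeded monosome FPKM at that further locus in 17 of 25 cases in normoxia with acidosis, 19 under hypoxia and 15 under hypoxia with acidosis, and at the chosen locus in 0 of 25 in each. Compared loci outside the group leaned the same way as the further loci. Their median log2 ratio of polysome to monosome was 0.31, 0.28 and 0.25 in those conditions. The counts at the further locus are therefore not read as a property of the pairs. PURB, a single-stranded DNA-binding repressor, had 291 and 0.84 FPKM in the monosome and polysome libraries at the chosen locus in normoxia with acidosis, and 3.14 and 7.16 FPKM at the other. FSCN1, the actin-bundling protein fascin, had 5.10 and 0 FPKM at the chosen locus in hypoxia, and 41.9 and 115 FPKM at the other. CDT1, a replication licensing factor, had 5.65 and 0.04 FPKM at the chosen locus in hypoxia, and 54.9 and 14.8 FPKM at the other. In these examples the further locus had the higher polysome value, and at CDT1 it also leaned to the monosome fraction.

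**Figure D5:**
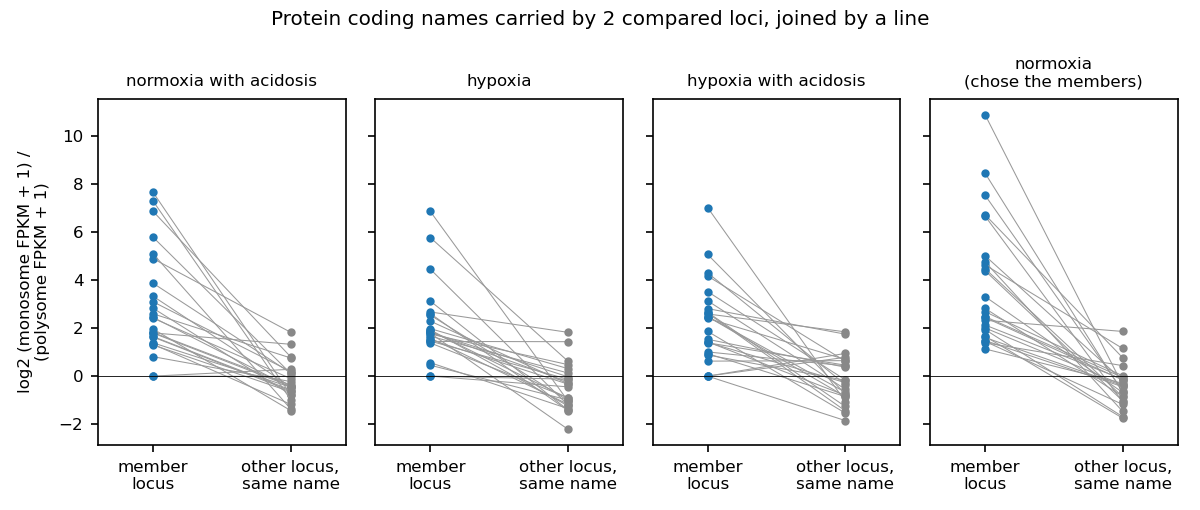
Log2 ratio of monosome to polysome FPKM, with 1 FPKM added to each, at the chosen locus and at the further locus of the same protein-coding name, joined by a line, for 25 pairs in each condition. Values below 0, where the polysome FPKM is the higher, occur at the further locus in 17, 19 and 15 pairs outside normoxia and at the chosen locus in 0. The median of compared loci outside the group is also below 0 in each condition.

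Some protein-coding names had far higher monosome values in both normoxia conditions than in hypoxia with acidosis. FCHO2, named for a membrane-bending protein of clathrin-coated pits, had monosome values of 99.3, 2.86 and 1.53 FPKM in normoxia with acidosis, hypoxia and hypoxia with acidosis, and 82.4 FPKM in normoxia. RANBP3L had 40.5, 27.7 and 5.59 FPKM in those stress conditions and 213 FPKM in normoxia. SIRT1, named for the NAD-dependent deacetylase, instead had 701, 178 and 1143 FPKM in the stress conditions and 1507 FPKM in normoxia at its chosen locus, while its other locus had between 0.99 and 1.61 FPKM in the monosome libraries and between 2.72 and 3.47 FPKM in the polysome libraries.

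For 5 names the normoxia monosome library held all of the signal, and the other 11 listed them at 0. The loci were NSUN4 at 1918 FPKM, the clone RP11-332O19.5 at 541 FPKM, C6orf52 at 186 FPKM, the vault RNA VTRNA1-1 at 82.4 FPKM and RNA5SP284 at 24.7 FPKM. NSUN4, named for a mitochondrial RNA methyltransferase, had a further locus on the other strand with 3.67, 3.31, 5.41 and 3.43 FPKM in the monosome libraries of normoxia with acidosis, hypoxia, hypoxia with acidosis and normoxia. These 5 loci rest on 1 library and have no value elsewhere to compare.

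Acidosis within hypoxia, which uses neither normoxia library, set hypoxia with acidosis against hypoxia. Changes are differences of log2(FPKM + 1) less the median difference of all compared loci. That median was 0.08 for the monosome fraction and 0.13 for the aggregate, which is the mean of the 3 fractions weighted by RNA amount. In the monosome fraction 108 of the 404 loci were at least 2-fold higher in hypoxia with acidosis, against 14.3% of compared loci, and 35 were at least 2-fold lower, against 11.9%, with a median change of 0.32. In an alternative chosen after seeing the data, leaving out loci that reached the mean of 1 FPKM only through 1 of the monosome libraries compared, 97 of 362 were higher, against 14.1%, and 28 lower, against 11.8%. In the aggregate 87 were higher, against 6.2%, and 10 lower, against 6.61%, with a median of 0.45. The monosome fraction carried 20.5% of the aggregate's weight in hypoxia with acidosis and 16.2% in hypoxia, so the fraction in which these loci were highest weighed more in the first. The ratio of polysome to monosome was at least 1.5-fold higher for 127 loci, against 26.6%, and lower for 97, against 27.6%, so these shares were near the background.

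Of the hosts of small nucleolar RNAs, in the monosome fraction 7 of 13 were at least 2-fold higher in hypoxia with acidosis and 0 lower. The shares over all compared loci were 14.3% and 11.9%. The median log2 change of the hosts was 1.04. TAF1D, a subunit of the RNA polymerase I selectivity factor and a host, was 944 FPKM in hypoxia with acidosis and 200 FPKM in hypoxia, a log2 change of 2.16. SNHG1 was 694 and 208 FPKM, a log2 change of 1.65. Of the ferritin loci 0 of 11 passed 2-fold in the aggregate, against 6.2% of compared loci higher and 6.61% lower.

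Single loci moved further. NEAT1 was 252 FPKM in the hypoxia with acidosis monosome library and 1050 FPKM in the hypoxia one, a log2 change of −2.13, and its polysome to monosome ratio was higher by 3.33 on the log2 scale. The corresponding ratio changes were 2.21 for PABPC1 and 1.63 for RPLP0. RPPH1 was 240 and 999 FPKM in the monosome fraction, a log2 change of −2.13. The pseudogene YBX1P1, a copy of the gene for the mRNA-packaging protein YB-1, was 494 and 107 FPKM, a log2 change of 2.11.

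Hypoxia at pH 6.0 set hypoxia with acidosis against normoxia with acidosis, and shares the hypoxia with acidosis libraries with the comparison above. In the monosome fraction 84 of the 404 loci were at least 2-fold higher in hypoxia with acidosis, against 16% of compared loci, and 61 lower, against 12.7%, with a median log2 change of 0.19, the median shift of all compared loci being 0.15. In the same alternative, without loci that needed 1 of the monosome libraries compared to reach the mean, 68 of 353 were higher, against 15.9%, and 51 lower, against 12.5%. In the aggregate 85 were higher, against 7.94%, and 17 lower, against 8.03%, with a median of 0.33. The monosome fraction carried 20.5% of the aggregate's weight in hypoxia with acidosis and 9.66% in normoxia with acidosis. The ratio of polysome to monosome was at least 1.5-fold higher for 149 loci, against 26.8%, and lower for 89, against 28.7%.

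In the aggregate of that comparison 8 of 11 ferritin loci were at least 2-fold higher in hypoxia with acidosis, against 7.94% of compared loci. The pseudogene loci may share reads with FTL and FTH1, so the 8 are not separate cases. FTL had an aggregate of 22110 FPKM in hypoxia with acidosis and 9149 FPKM in normoxia with acidosis, a log2 change of 1.17, and FTH1 of 16739 and 7278 FPKM, a log2 change of 1.09. In the monosome fraction alone the log2 changes were 0.36 for FTL and 0.44 for FTH1, below 2-fold. The polysome to monosome ratio was higher by 0.73 for FTL and 0.78 for FTH1 on the log2 scale. The difference in weight of the monosome fraction moves with the aggregate result, and its part in it was not tested.

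Other kinds were divided in the same comparison. Of the host loci 7 of 13 were at least 2-fold higher in the aggregate and 1 lower, the last being NOP56, against 7.94% and 8.03% of compared loci. Of the 5 mitochondrial copies 3 were at least 2-fold lower and 1 higher in the monosome fraction, with a median log2 change of −1.34. The opposite-strand protein-coding loci were higher in 6 cases and lower in 9 of 33 in the monosome fraction. In that fraction 16% of compared loci were higher and 12.7% lower, so the 6 of 33 were near the background. FCHO2, PURB (on its own strand), PLCB1 and RANBP3L had log2 changes of −5.46, −4.81, −3.85 and −2.80 in the monosome fraction. PABPC1 and RPLP0 had polysome to monosome ratios higher by 3.33 and 2.26 on the log2 scale, and NEAT1 by 2.71.

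The epithelial genes KRT19, TFF1 and KRT8, the last picked after its values were seen, were higher in the hypoxia with acidosis monosome library. KRT19, a keratin of simple epithelia, was 20.6 FPKM there, 2.39 FPKM in hypoxia and 0.75 FPKM in normoxia with acidosis. TFF1, a secreted peptide of mucous epithelia, was 18.3 FPKM there, 0.37 FPKM in hypoxia and 0 in normoxia with acidosis. Its aggregate was 3.75 FPKM in hypoxia with acidosis, 0.11 FPKM in hypoxia and 0 in normoxia with acidosis. KRT8 was 111, 39.4 and 48.4 FPKM in the same order. EPCAM was 2.56 FPKM in that library and between 0.42 and 1.85 FPKM in the 11 others, and the KRT18 and CDH1 values given above were also highest there. The mean of 1 FPKM that loci had to reach included the hypoxia with acidosis monosome library, which favours high values there. Through that library 32 of the 404 loci passed it. The part of other cells in the KRT19, TFF1 and KRT8 results was not tested.

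The 404 loci held 26.3%, 21.1% and 17.7% of the summed monosome FPKM in normoxia with acidosis, hypoxia and hypoxia with acidosis, and 34.5% in normoxia. Their share of the polysome libraries was 2.73%, 2.64% and 4.44% in the stress conditions and 2.5% in normoxia. The choice itself favours a larger monosome share and a smaller polysome share in normoxia. Nothing is therefore read from the contrasts of these shares with normoxia. Translation machinery loci outside the group held 33.7%, 37.7% and 37.5% of the monosome FPKM in the stress conditions and 15.7% in normoxia. FPKM is divided by length, so short transcripts weigh more in these sums than in reads. The sums run over all loci of a library, so the part of the one in the other cannot be told apart.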

How the data were processed

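The authors deposited FPKM values for assembled loci with gene names, and, per the file headers, a signal made by multiplying FPKM by an RNA factor per library. Here each factor was read as the median ratio of that signal to FPKM with duplicate names averaged. The signal was not used otherwise, since the gene names beside it do not line up with those beside FPKM. The build GRCh38 and the tools STAR 2.5.0, bcl2fastq, Cuffnorm and Cufflinks 2.2.1 are listed in the submitters' processing notes, with no roles. The library kit marks strand, per the labels. The annotation used for assembly is not given in the sources used here, and the files give no coordinates.

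Members were chosen as stated in the report, and the members and gene lists were chosen with earlier results of these data known. Ratios of 10-fold used FPKM as deposited; log2 values used FPKM + 1, which understates changes of low loci. Changes were called at 2-fold for levels and 1.5-fold for polysome over monosome, after centring on the median compared locus. Members were matched by name to GENCODE 29 (167 loci, and 18 more through RefSeq); strand was inferred from locus numbering. FPKM carries no read counts, so depth is relative and no interval is given. Named genes were those with the highest normoxia monosome FPKM, the highest monosome level among loci skewed in all conditions by gene type, the lowest skew elsewhere, list members, the largest changes, and those nearest the 10-fold line; FCHO2, CDT1, COMMD6, RPSA and KRT8 among others were added after their values were seen. Scripts (Python 3.11.15, pandas 2.3.3, numpy 2.4.6) were tested on simulated data. Alternatives were the mean minimum, fold, pseudocount, centring and RNA scaling.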

Additional observations from a re-analysis of the deposited data

How the results depend on the processing

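Number of loci chosen, 404 as reported, was 173 with a mean minimum of 5 FPKM, 764 at 5-fold, 227 at 20-fold and, in an alternative chosen after seeing the data, 159 with the authors' RNA scaling. The count with a 10-fold skew in normoxia with acidosis was 130 with a mean minimum of 5 FPKM, 99 with RNA scaling, 116 with 1 FPKM added to both fractions, 540 at 5-fold, 119 at 20-fold and 148 without clone names. In hypoxia it was 141, 148, 111, 623, 130 and 157 under these settings in the same order. In hypoxia with acidosis it was 102, 114, 104, 440, 96 and 112. For all 3 conditions together it was 89, 53, 65, 359, 67 and 85. Leaving out clone names was chosen after seeing the data, and it and the mean minimum lower the counts by leaving fewer loci; the cause of the other differences was not tested.

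The median log2 ratio of polysome to monosome was −3.59, −3.70 and −3.08 in normoxia with acidosis, hypoxia and hypoxia with acidosis with a pseudocount of 0.1 FPKM, and −3.76, −3.65 and −3.43 with a mean minimum of 5 FPKM. With RNA scaling it was −1.23 in normoxia with acidosis and −1.44 in hypoxia with acidosis. The median log2 ratio of oligosome to monosome was −1.76 in normoxia with acidosis and −1.92 in hypoxia with the mean minimum of 5 FPKM. With RNA scaling it was −0.59 in hypoxia and turned to 0.48 in normoxia with acidosis, where the oligosome factor is 4.47 times the monosome factor. The other 78 values moved by less than the limit set for them, 1.5 times for a count. They include those for loci that reach the mean without the monosome libraries used, chosen after seeing the data. No paired analysis was possible because each condition and fraction has 1 library and no replicate number. Depth limits loci near 0 in the polysome libraries: a value of 0 there shows that no read was assigned at that depth and not that the RNA is absent.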

Other observations

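Loci that met the same mean and fold in normoxia but fell outside the naming rule were 740 without a gene name and 33 that named small RNAs only, and a further 4014 named loci met the fold below the mean minimum. The locus named DOCK3 and MIR4787 was 281 FPKM in the normoxia monosome library and between 0.25 and 0.70 FPKM in the other monosome libraries. That contrast shares the normoxia value used for the choice, so nothing is read from it. STC2, a secreted glycoprotein induced by hypoxia in other cells, was 1.31, 11.8 and 18.6 FPKM at its chosen opposite-strand locus in the stress conditions and 2.06 FPKM in normoxia, and 7.78, 9.59 and 20.5 FPKM at its further locus, against 3.07 FPKM in normoxia. NMU, a neuropeptide, was 3.13, 37.1 and 28.9 FPKM in the monosome libraries of the stress conditions and 4.20 FPKM in normoxia.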
